A study of Rattus norvegicus with 12 samples.

Results

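The genes described here are those of ribosome biogenesis, a list of 60 genes that encode subunits of RNA polymerase I, the proteins of the snoRNP particles that modify ribosomal RNA, and assembly factors of both ribosomal subunits. A gene was taken by its probe set, the group of short probes that measures one transcript, where the array's annotation gave that probe set exactly 1 gene symbol, and where several probe sets qualified the one with the highest mean signal over the 12 arrays was used. By this rule 46 of the 60 genes were measured, out of 10412 genes with such a probe set on the array, and all 46 passed the filter on low signals. No probe set carried the symbol alone for Bop1, Ddx18, Emg1, Heatr1, Noc4l, Nop2, Npm1, Npm3, Pdcd11, Rrp12, Utp11, Utp14a, Utp20 or Wdr75, and these 14 genes are not analysed here.

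The cells were rat liver cells of 2 lines. GP7TB (tumor cells) was obtained from WB-F344 by repeated treatment with a mutagenic nitroso compound and grows as tumors in rats of the same strain, and WB-F344 (normal cells) is a diploid line of epithelial cells that came from an adult male Fischer-344 rat's liver. Each line was cultured for 18 hours in Chee's Essential Medium with fetal bovine serum, either without arginine (arginine-deficient) or with L-arginine HCl at 0.168 g/l (arginine-sufficient), so that all 4 groups shared the change of medium. The serum was not dialyzed, and the authors state that arginine starvation was therefore not total. Here "without arginine" means that none was added to the medium. RNA of 3 cultures per group was measured, 1 array each, in 3 independent experiments per line, each with an arginine-deficient and an arginine-sufficient culture. Signals are linear intensities scaled per array, and the number of arrays limits the precision. Both lines are single lines, so a difference between tumor and normal cells is a difference between these lines.

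A cell makes ribosomes in the nucleolus. RNA polymerase I transcribes the long precursor of the 18S, 5.8S and 28S ribosomal RNAs, box C/D and box H/ACA snoRNPs guide its methylation and pseudouridylation, and the small subunit processome and the 60S assembly factors fold and cut it while ribosomal proteins join. Growing cells spend much of their energy and amino acids on this pathway, and starvation for an amino acid is known in other systems to lower the rate of ribosomal RNA synthesis. The arrays measured messenger RNA of the factors, not ribosomal RNA or ribosomes, and in bulk RNA fewer cells with a transcript and less of it per cell cannot be told apart.

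The labelled cell types were checked against marker genes. The expressed threshold is the lower edge of the highest 54% of signals on an array. None of the 6 measured hepatocyte markers was above it on 3 or more of the 12 arrays, with single signals of Alb, Hnf4a, Serpina1 and Ttr above it on tumor arrays, and the list had summed signals of 620 to 708 in arginine-deficient tumor, 652 to 794 in arginine-sufficient tumor, 303 to 537 in arginine-deficient normal and 448 to 603 in arginine-sufficient normal cells. Of 6 measured biliary and progenitor epithelial markers, 2, Krt7 and Krt8, were above it by their mean in every group. The signals of Krt7 were 175.8 to 382.4 in arginine-deficient tumor and 257.7 to 309.6 in arginine-sufficient tumor cells. They were 3198.8 to 6115.1 in arginine-deficient normal and 5007.5 to 6320.9 in arginine-sufficient normal cells. Krt8 was not lower in tumor cells, with 5692.4 to 9817.2 in arginine-deficient tumor and 6257.3 to 11222.9 in arginine-sufficient tumor cells. Its signals were 2158.8 to 5588.9 in arginine-deficient normal and 3970.4 to 7042.3 in arginine-sufficient normal cells. The 6 mesenchymal markers summed to 12165 to 16484 in arginine-deficient tumor and 11666 to 13685 in arginine-sufficient tumor cells, against 45914 to 63173 in arginine-deficient normal and 58206 to 73832 in arginine-sufficient normal cells. Col1a1 and Col1a2 had signals of 24.2 to 592.4 in tumor and 15113.4 to 28460.1 in normal cells. Vim had 11398.3 to 15657.3 in arginine-deficient tumor against 13490.8 to 19485.7 in arginine-deficient normal cells, with overlap. With arginine it had 10353.7 to 12438.3 in tumor and 18212.0 to 18359.4 in normal cells. The part of these markers in any difference between the lines was not tested. As a sign of RNA quality, signal at the 3' end of Gapdh was set over signal at its 5' end, which gave 1.13 to 1.23 in arginine-deficient and 1.09 to 1.14 in arginine-sufficient tumor cells, and 1.01 to 1.38 in arginine-deficient and 0.998 to 1.25 in arginine-sufficient normal cells. This ratio was higher in the arginine-deficient culture in 6 of 6 experiments, while that of beta-actin was higher in 2 of 6, and the part of either in the results was not tested.

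Promoter sequences are shown for 4 genes that were higher without arginine in all 3 tumor experiments, Pdcd2, Nop58, Fbl and Utp4, because they carry the sequence elements counted below. Each line gives 250 bases before and 30 after the RefSeq start in the rat build GRCr8, on the gene's own strand, with capitals for the E-box CACGTG and for the ETS element CCGGAAG or its reverse complement CTTCCGG. The windows lie at chr1:65163495-65163774 on the minus strand (Pdcd2), chr9:68614824-68615103 (Nop58), chr1:92597157-92597436 (Fbl) and chr19:51701991-51702270 (Utp4), the last 3 on the plus strand.
Pdcd2: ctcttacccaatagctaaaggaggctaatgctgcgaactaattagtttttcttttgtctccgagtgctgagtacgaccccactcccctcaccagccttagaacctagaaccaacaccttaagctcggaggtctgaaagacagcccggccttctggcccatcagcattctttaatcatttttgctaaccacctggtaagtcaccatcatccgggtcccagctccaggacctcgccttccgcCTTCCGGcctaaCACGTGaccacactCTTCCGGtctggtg
Nop58: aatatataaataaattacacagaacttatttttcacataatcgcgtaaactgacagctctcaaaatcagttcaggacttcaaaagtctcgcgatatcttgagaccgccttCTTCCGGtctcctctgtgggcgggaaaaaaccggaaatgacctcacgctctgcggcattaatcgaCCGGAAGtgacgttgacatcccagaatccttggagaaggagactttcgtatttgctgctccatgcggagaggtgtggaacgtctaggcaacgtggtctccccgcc
Fbl: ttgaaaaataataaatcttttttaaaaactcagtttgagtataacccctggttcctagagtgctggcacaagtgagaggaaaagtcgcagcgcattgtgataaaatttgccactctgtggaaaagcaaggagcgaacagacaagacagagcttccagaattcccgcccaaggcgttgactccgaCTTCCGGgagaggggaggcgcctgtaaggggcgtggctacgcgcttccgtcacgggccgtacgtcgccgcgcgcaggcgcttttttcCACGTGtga
Utp4: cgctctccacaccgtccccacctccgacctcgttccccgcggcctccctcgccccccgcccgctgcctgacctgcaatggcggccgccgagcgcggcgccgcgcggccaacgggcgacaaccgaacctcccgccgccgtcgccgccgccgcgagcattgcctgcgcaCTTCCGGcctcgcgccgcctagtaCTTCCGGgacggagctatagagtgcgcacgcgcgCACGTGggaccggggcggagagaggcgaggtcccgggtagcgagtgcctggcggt
In the Pdcd2 window the E-box filled bases 253 to 258, counted from the first base shown, between ETS elements at bases 241 to 247 and 267 to 273. The Fbl window held an ETS element at bases 185 to 191 and an E-box at 272 to 277, and the Utp4 window an E-box at 226 to 231 behind 2 ETS elements. The Nop58 window had 2 ETS elements, at bases 111 to 117 and 176 to 182, and no E-box.

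The E-box, which MYC and related proteins bind, and the ETS element were searched on both strands in the 300 bases from 250 before to 50 after the start, with 1 window per gene symbol. Of the 41 measured genes with a window, 14 (34.1%) held an E-box, against 6.65% of all 27457 windows, and 22 (53.7%) held an ETS element, against 9.22% of all windows. The C/EBP-ATF element TGATGNAA, a form of the amino acid response element, was in 1 of the 41 windows (2.44%), that of Gar1, against 3.82% of all windows, and the YY1 element AAGATGGCG in 0 of 41, against 1.93%. All windows include those of genes of every kind, and base composition was not matched. A match is only a run of letters. In tumor cells the median log2 difference without arginine was 0.32 over the 14 genes with an E-box and 0.44 over the 27 without, and it was 0.42 over the 22 genes with an ETS element and 0.31 over the 19 without.

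Leaving arginine out of the medium of tumor cells was followed by higher signals for most of these genes. The arginine-deficient mean was above the arginine-sufficient mean for 38 of 46 genes, while 44.4% of all 9745 probe sets tested were higher. The median log2 difference (arginine-deficient minus arginine-sufficient) was 0.40 over the 46 genes and -0.05 over all probe sets tested. Pdcd2 and Nop14 rose at an adjusted p under 0.05 by limma with Benjamini-Hochberg adjustment over all probe sets (2 of 46, against 0.965% of all probe sets called higher), and 0 fell (0.944% of all called lower). At an unadjusted p under 0.05 there were 19 higher and 0 lower, against 6.51% and 8.79% of all probe sets. With each experiment taken as a pair, by a block for the experiment in the same model, 15 genes rose and 0 fell, where 4.79% and 6.18% of all probe sets were called higher and lower. The 15 were Pdcd2, Nop14, Nop58, Wdr74, Utp4, Polr1b, Nip7, Wdr43, Nop56, Ltv1, Fbl, Nop16, Rrp9, Gar1 and Wdr12. On the arrays themselves 22 genes had all 3 arginine-deficient signals above all 3 arginine-sufficient signals (9.69% of all probe sets) and 1, Imp3, had them all below (13.6%). In 29 genes the difference was positive in every experiment (21.3% of all probe sets), and in 2 it was negative in every experiment (28.6%). The medians of the 46 genes in experiments 1, 2 and 3 were 0.39, 0.34 and 0.32. Within the chip lot that held 2 arrays of each kind the median was 0.36. Within the other lot it was 0.50, from 1 arginine-deficient array of experiment 1 and 1 arginine-sufficient array of experiment 2. The pairs of experiments 1 and 2 were each split over the 2 lots, and the pair of experiment 3 was not. By the array records, the tumor cultures of experiment 2 were handled without trypsin and those of experiments 1 and 3 with it. Without both tumor arrays of experiment 2 the median was 0.37, and 0 of the 46 genes and 10 of the 9745 probe sets passed the threshold.

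**Figure D1:**
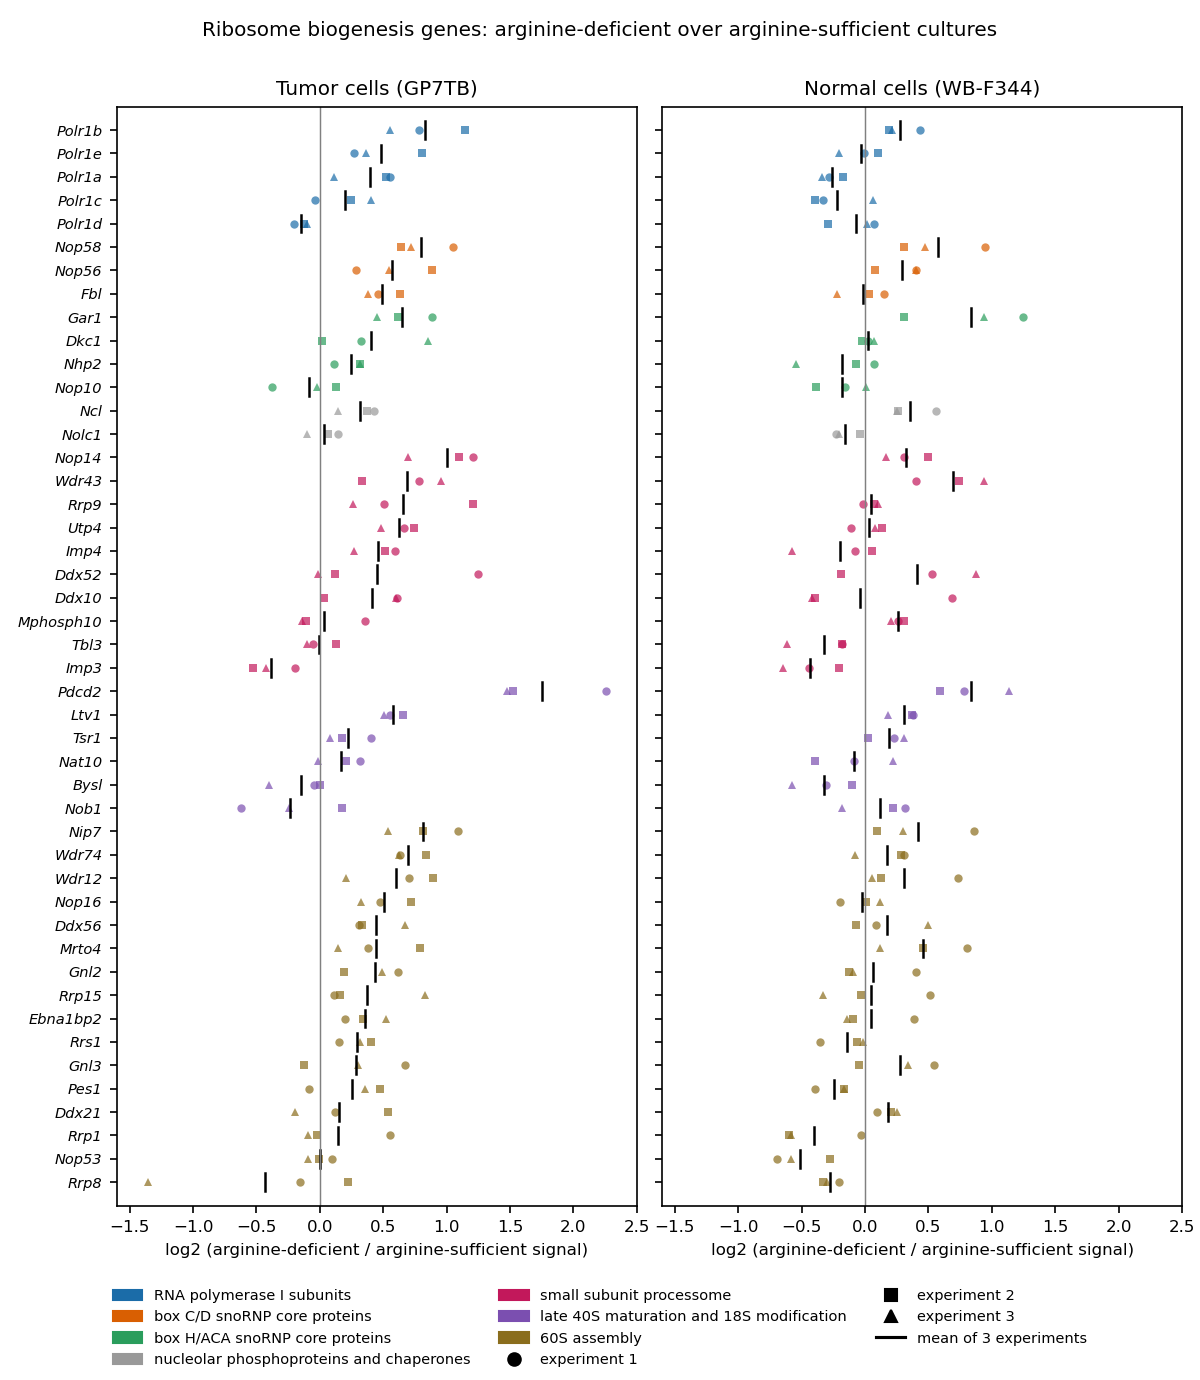
Each row is 1 of the 46 genes, grouped by role, and each symbol is the log2 ratio of arginine-deficient to arginine-sufficient signal in 1 experiment (circle, square and triangle for experiments 1, 2 and 3), with a black bar at the mean, in tumor cells (left) and normal cells (right). In tumor cells 38 of the 46 means lie above 0, and in normal cells 26.

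Pdcd2, known from human cells as a chaperone of a small subunit ribosomal protein, showed the largest rise of the 46. Its signals were 1325.7, 960.5 and 939.4 in arginine-deficient tumor cells (experiments 1, 2 and 3), against 277.0, 333.4 and 338.4 in arginine-sufficient tumor cells. The groups did not overlap, and the lowest arginine-deficient signal was above the highest arginine-sufficient one by far more than the spread within either group. The log2 difference was 1.75 ± 0.24 (SE, n = 3 cultures per group, limma adjusted p = 0.00381). Without both tumor arrays of experiment 2 it was 1.87 with an adjusted p of 0.0732. Nop14, a component of the small subunit processome, had signals of 554.6, 398.5 and 386.2 in arginine-deficient tumor cells, against 240.7, 186.1 and 238.1 in arginine-sufficient tumor cells. Again all arginine-deficient signals were the higher ones. Its log2 difference was 1.0 ± 0.21 (limma adjusted p = 0.029). This call was lost when any 1 of the 4 tumor arrays of experiments 1 and 2 was left out. The adjusted p was then 0.0812 and 0.0888 for the arginine-deficient arrays of these experiments, and 0.076 and 0.154 for the arginine-sufficient ones. It was also lost with the chip lot as a block (limma adjusted p = 0.059).

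**Figure D2:**
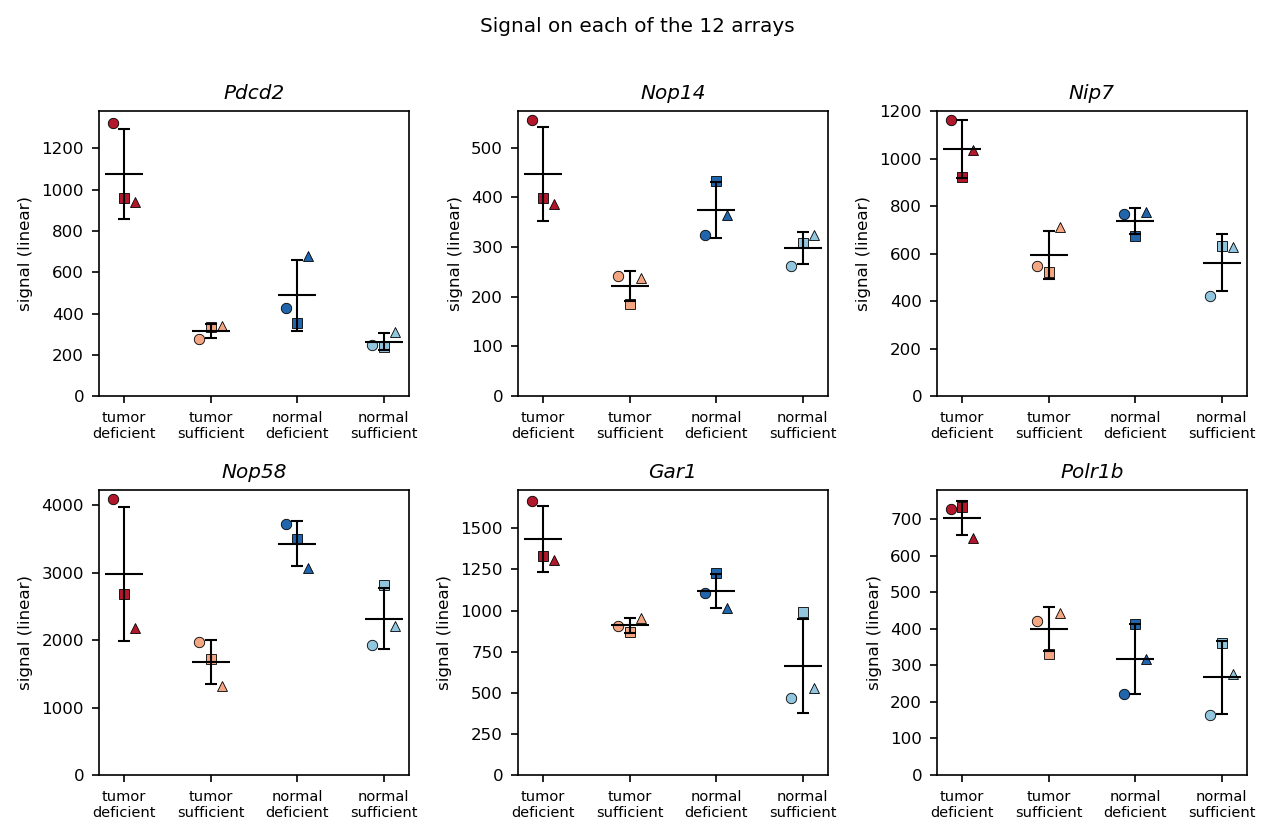
Each panel gives the linear signal of 1 gene on every array, by group from left to right: arginine-deficient tumor, arginine-sufficient tumor, arginine-deficient normal and arginine-sufficient normal cells. Symbols mark experiments 1 (circle), 2 (square) and 3 (triangle), and bars the mean and SD of 3 cultures. The panels show Pdcd2, Nop14, Nip7, Nop58, Gar1 and Polr1b. All 6 are among the 22 of the 46 genes whose arginine-deficient tumor signals lie above all arginine-sufficient tumor signals. The panels therefore do not stand for all 46 genes.

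The 5 subunits of RNA polymerase I did not move alike in tumor cells. Polr1b, the second-largest subunit, had signals of 726.9, 732.8 and 649.2 without arginine, against 421.9, 330.9 and 443.0 with it. The groups did not overlap, and the log2 difference was 0.83 ± 0.28 (limma adjusted p = 0.166, and 0.010 with the experiment as a block). Polr1a, the largest subunit, had 751.1, 841.4 and 700.9 in arginine-deficient against 510.8, 586.6 and 647.4 in arginine-sufficient tumor cells, a log2 difference of 0.40 ± 0.17 that did not pass either fit (adjusted p = 0.288 and 0.117 with the block). Polr1e, a subunit found in RNA polymerase I alone, was also higher on all 3 arginine-deficient arrays (302.7, 351.8 and 337.1) than on the arginine-sufficient arrays (250.6, 201.3 and 261.4), with a log2 difference of 0.48 ± 0.19 (adjusted p = 0.247). The groups overlapped for Polr1c and Polr1d, the subunits that RNA polymerase I shares with RNA polymerase III, whose log2 differences were 0.20 ± 0.18 and -0.14 ± 0.18 (adjusted p = 0.652 and 0.761). A second probe set of Polr1d fell with the experiment as a block (log2 difference -0.58, adjusted p = 0.0273, and 0.263 without the block), while the probe set used here had an adjusted p of 0.472 in that fit.

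All 3 listed core proteins of the box C/D snoRNP had non-overlapping signals in tumor cells and passed with the experiment as a block. This particle methylates ribosomal RNA, and the 3 need not be all of its core proteins. Nop58, one of its scaffold proteins, had 4082.7, 2677.6 and 2171.7 in arginine-deficient against 1970.5, 1722.4 and 1322.4 in arginine-sufficient tumor cells. Its log2 difference was 0.80 ± 0.23 (limma adjusted p = 0.106, and 0.005 with the block). Nop56, the other scaffold protein, had 3476.6, 3963.7 and 3865.2 without arginine and 2860.3, 2147.1 and 2646.1 with it, a log2 difference of 0.57 ± 0.22 (adjusted p = 0.209, with the block 0.021). Fbl, the methyltransferase fibrillarin, had 2168.7, 2513.3 and 2292.5 in arginine-deficient tumor cells, against 1581.5, 1621.5 and 1759.8 in arginine-sufficient tumor cells, with a log2 difference of 0.49 ± 0.21 (adjusted p = 0.290, with the block 0.027). For each of these 3 genes the lowest arginine-deficient signal stood above the highest arginine-sufficient signal.

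Of the 4 core proteins of the box H/ACA snoRNP, which converts uridines to pseudouridine, 1 rose in tumor cells once the experiment was a block. Gar1 had signals of 1667.5, 1329.8 and 1304.4 in arginine-deficient against 904.9, 866.7 and 955.3 in arginine-sufficient tumor cells. The log2 difference was 0.65 ± 0.24 (limma adjusted p = 0.195, and 0.034 with the block). Dkc1, the pseudouridine synthase, had 2352.8, 2417.9 and 2532.2 without arginine and 1878.5, 2385.6 and 1400.3 with it, so that 1 arginine-sufficient array lay within the arginine-deficient range (log2 difference 0.40 ± 0.26, adjusted p = 0.516). Nhp2 and Nop10 differed by 0.25 ± 0.28 and -0.09 ± 0.18 (adjusted p = 0.741 and 0.877). The abundant nucleolar phosphoproteins nucleolin and Nopp140, encoded by Ncl and Nolc1, gave 0.31 ± 0.22 and 0.04 ± 0.29 in tumor cells (adjusted p = 0.563 and 0.977), with overlapping groups, and the 2 other probe sets of Nolc1 gave 0.31 and 0.21.

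Among the 10 measured genes of the small subunit processome, which assembles on the ribosomal RNA precursor, 4 rose in the blocked fit of tumor cells: Nop14, Utp4, Wdr43 and Rrp9. Utp4, a member of the subcomplex that binds the precursor first, had 2634.7, 2110.8 and 2194.8 in arginine-deficient against 1665.6, 1262.6 and 1574.9 in arginine-sufficient tumor cells (log2 difference 0.63 ± 0.18, limma adjusted p = 0.097, with the block 0.008). Wdr43, of the same subcomplex, had 1521.7, 889.7 and 920.4 without arginine and 886.3, 705.1 and 474.6 with it, where the arginine-deficient signal of experiment 2 was only just above the arginine-sufficient signal of experiment 1 (0.69 ± 0.25, adjusted p = 0.194, with the block 0.018). Imp3 went the other way, with 692.2, 662.7 and 644.5 in arginine-deficient tumor cells, all below the 791.6, 956.4 and 863.6 of arginine-sufficient tumor cells. Its log2 difference was -0.38 ± 0.25 (limma adjusted p = 0.514, with the block 0.111). Imp3 and Imp4 encode partners of Mphosph10 in one complex, and these 3 genes gave different values, with 0.46 ± 0.17 for Imp4 (adjusted p = 0.197) and 0.04 ± 0.35 for Mphosph10. Ddx52, an RNA helicase, had 202.2, 73.0 and 88.8 without arginine and 85.4, 67.3 and 89.7 with it, with 1 high arginine-deficient array, that of experiment 1, and 5 of these 6 signals were under the lowest expressed threshold of 146.

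Besides Pdcd2, the gene of late 40S maturation that rose with the block was Ltv1, an export and assembly factor. It had 636.5, 640.9 and 674.8 in arginine-deficient against 433.5, 406.8 and 474.0 in arginine-sufficient tumor cells, with a narrow spread in both groups. The log2 difference was 0.57 ± 0.15 (limma adjusted p = 0.065, with the block 0.025). Nob1, the nuclease that makes the final cut at the end of 18S RNA, had one of the 3 lowest values in tumor cells, with 838.3, 1350.9 and 1184.3 in arginine-deficient and 1291.6, 1197.7 and 1403.3 in arginine-sufficient cells (-0.23 ± 0.20, adjusted p = 0.633). Bysl, Tsr1 and Nat10, the last of which acetylates 18S RNA, lay between -0.15 and 0.22 with overlapping groups.

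The 60S assembly factors gave a median log2 difference of 0.36 in tumor cells over 16 genes, 14 of them above 0, and 4 rose in the blocked fit: Nip7, Wdr74, Nop16 and Wdr12. Nip7, a small RNA-binding factor of the 60S pathway, had signals of 1163.8, 921.4 and 1036.2 in arginine-deficient tumor cells, against 548.2, 523.8 and 712.1 in arginine-sufficient tumor cells. Its log2 difference was 0.81 ± 0.20 (limma adjusted p = 0.053, with the block 0.012). Wdr74 had 1967.7, 2066.2 and 2237.8 without arginine and 1270.2, 1158.9 and 1451.7 with it (0.70 ± 0.20, adjusted p = 0.098, with the block 0.007), and neither gene's groups overlapped. Wdr12 works in a complex with Pes1, and the 2 genes gave 0.60 ± 0.19 and 0.25 ± 0.20, with adjusted p of 0.127 and 0.607. At the other end, Rrp8, a nucleolar methyltransferase, gave the lowest value of the 46 at -0.43 ± 0.37 (adjusted p = 0.638), and 1 array carried it. Its signals were 203.3, 259.1 and 78.4 in arginine-deficient and 226.8, 222.0 and 200.6 in arginine-sufficient tumor cells.

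**Figure D3:**
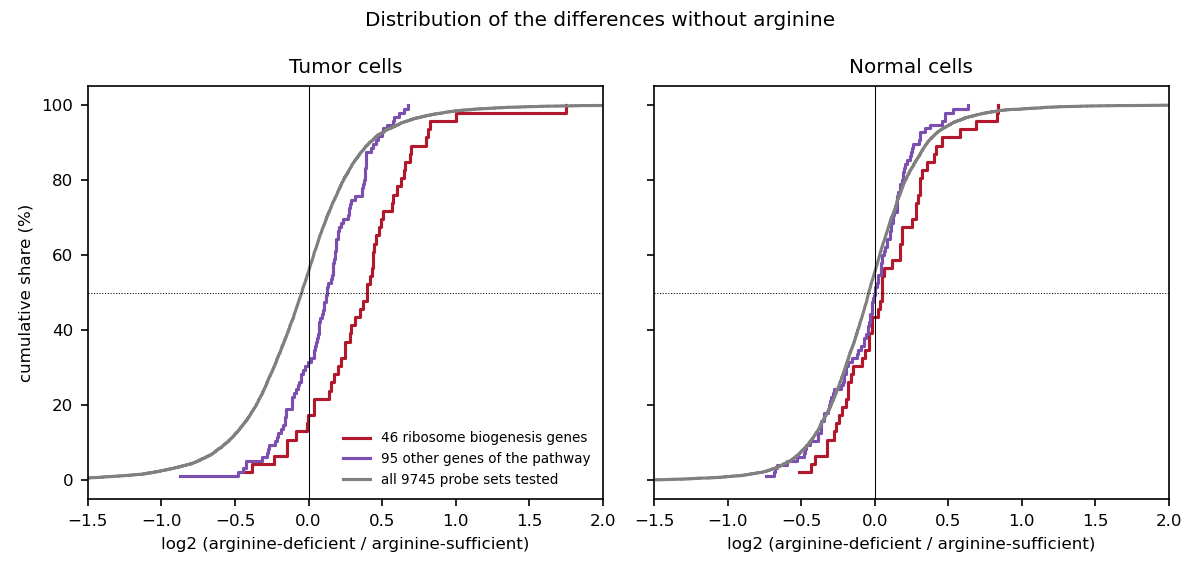
Cumulative share of genes or probe sets (vertical axis, percent) against the log2 ratio of arginine-deficient to arginine-sufficient signal (horizontal axis), in tumor cells (left) and normal cells (right), for the 46 ribosome biogenesis genes, 95 other genes of the pathway and all 9745 probe sets tested. In tumor cells the curves cross the 50% line at 0.40, 0.12 and -0.05, and in normal cells at 0.05, 0.00 and -0.04.

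In normal cells the same genes were spread around 0. The arginine-deficient mean was higher for 26 of the 46 genes (44.6% of all probe sets), with a median log2 difference of 0.05 and a range of -0.52 for Nop53 to 0.84 for Pdcd2. By limma 0 of the 46 passed the threshold as higher or lower, where 0.133% and 0.0308% of all probe sets did. At an unadjusted p under 0.05 there were 4 higher and 1 lower, against 4.07% and 5.37% of all. In the blocked fit 3 rose, Gar1, Pdcd2 and Wdr43, and 0 fell (1.39% and 1.03% of all probe sets). In 7 genes all arginine-deficient signals were above all arginine-sufficient signals (6.18% of all probe sets), and in 1, Nop53, all were below (7.76%). Every experiment gave a positive difference in 15 genes and a negative one in 10 (17.1% and 23.2% of all probe sets). The medians of the 46 genes were 0.12, -0.01 and 0.06 in experiments 1, 2 and 3. The arginine-sufficient array of experiment 2 was scanned alone on its day and was the only array of its chip lot. Scan day and chip lot thus cannot be told apart for it, and a fit with scan day as a block takes it out of the comparison. On this array the median of the 46 genes stood 0.86 log2 units above that of all probe sets. The gap was 0.39 and 0.56 on the other arginine-sufficient normal arrays and 0.56 to 0.77 on the arginine-deficient ones. Within the scan days that held both kinds of culture the median difference was 0.34 (2 arginine-deficient arrays and 1 arginine-sufficient array) and 0.06 (1 of each). Leaving out the arginine-sufficient array of experiment 2 gave a median of 0.18. It was -0.032 when the arginine-sufficient array of experiment 1 was left out and -0.035 when the arginine-deficient array of experiment 2 was, so its sign rested on single arrays.

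Pdcd2 had 427.0, 355.1 and 680.8 in arginine-deficient against 248.3, 236.3 and 309.2 in arginine-sufficient normal cells. Its log2 difference there was 0.84 ± 0.24 (limma adjusted p = 0.272, with the block 0.043). Gar1 had 1107.7, 1226.1 and 1017.5 without arginine and 467.1, 989.7 and 529.5 with it, the arginine-sufficient array of experiment 2 being nearly as high as the arginine-deficient ones (0.83 ± 0.24, adjusted p = 0.272, with the block 0.035). With scan day as a block Gar1 was the 1 gene of the 46 that passed in normal cells. Wdr43 had 855.3, 1111.8 and 1216.6 in arginine-deficient normal cells, against 648.5, 666.8 and 634.1 in arginine-sufficient normal cells, which were close to each other. Its log2 difference was 0.69 ± 0.25 (adjusted p = 0.400, with the block 0.047). Nop58 also had no overlap, at 3723.5, 3498.1 and 3063.7 against 1931.7, 2821.8 and 2202.0 with arginine (0.58 ± 0.23, adjusted p = 0.451, with the block 0.056).

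Lower values in normal cells were found for Nop53, Imp3 and Rrp1, none of which passed. Nop53, an adaptor of 60S maturation, had 448.7, 672.2 and 627.3 in arginine-deficient and 724.6, 811.8 and 940.6 in arginine-sufficient normal cells, with a log2 difference of -0.52 ± 0.21 (limma adjusted p = 0.451, with the block 0.075). Imp3 and Rrp1 gave -0.43 ± 0.25 and -0.40 ± 0.19 (adjusted p = 0.629 and 0.537). The RNA polymerase I subunits were between -0.26 for Polr1a and 0.28 for Polr1b in normal cells. Of the snoRNP proteins, Nop56, Fbl, Dkc1, Nhp2 and Nop10 gave 0.29, -0.02, 0.02, -0.18 and -0.18, and Ncl and Nolc1 0.36 and -0.16, each with overlapping groups.

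The responses of the lines share no arrays and could be set side by side. Over the 46 genes the tumor and normal log2 differences correlated with Pearson's r = 0.70 and Spearman's rho = 0.68, and over all 9745 probe sets with r = 0.37 and rho = 0.35, where the points of a line share the same 6 arrays and genes are not independent replicates. In 13 of the 46 genes the arginine-deficient signal was higher in all 3 experiments of both lines, against 6.96% of all probe sets: Gar1, Ltv1, Mrto4, Ncl, Nip7, Nop14, Nop56, Nop58, Pdcd2, Polr1b, Tsr1, Wdr12 and Wdr43. Imp3 was the 1 gene that was lower in all 6 (10.1% of all probe sets). Polr1a and Rrs1 were higher in all 3 tumor and lower in all 3 normal experiments (2.13% of all probe sets), and 0 genes showed the reverse (2.17%). Whether the lines responded differently was tested by the difference between the responses (tumor minus normal). It was above 0 for 37 of the 46 genes (49.0% of all probe sets), with a median of 0.31, while the median over all probe sets was -0.01. By limma 0 of the 46 genes and 0.0% of all probe sets passed the threshold, and in the blocked fit 0 of the 46 and 0.0513% of all did. In the first of these fits 5 of the 46 were higher and 0 lower at an unadjusted p under 0.05, against 2.75% and 2.89% of all. Those 5 were Pdcd2, Nop14, Polr1a, Imp4 and Utp4. The response of Pdcd2 was larger in tumor cells by 0.92 ± 0.34 (95% confidence interval 0.19 to 1.65, adjusted p = 0.824). For Nop14 the difference was 0.68 ± 0.29 (0.05 to 1.31, adjusted p = 0.837). At the other end were Nob1 with -0.35 ± 0.28 (-0.95 to 0.25), Mphosph10 with -0.22 ± 0.50 (-1.29 to 0.85) and Gar1 with -0.18 ± 0.34 (-0.91 to 0.54). The responses of single genes were thus not shown to differ between the lines, and intervals of this width leave room for a difference in most of them.

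**Figure D4:**
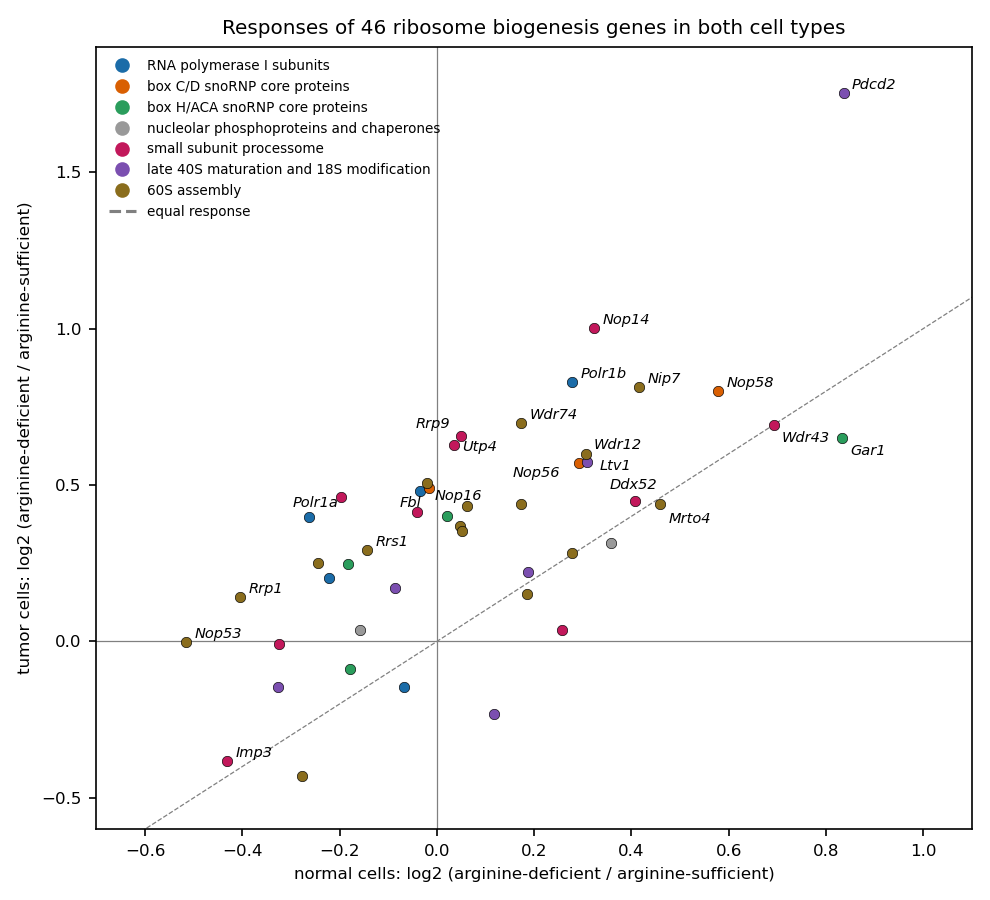
Each point is 1 of the 46 genes, with its mean log2 ratio of arginine-deficient to arginine-sufficient signal in tumor cells (vertical axis) and in normal cells (horizontal axis), coloured by role, and the dashed line marks equal responses. Pdcd2 is at 1.75 and 0.84, and 37 of the 46 points lie above the line, against 49.0% of all probe sets with the larger value in tumor cells.

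Tumor and normal cells were then compared at the same arginine level. Arrays of the 2 lines were scanned on different days and came from different chip lots, so line, scan day and chip lot cannot be told apart. Without arginine 19 of the 46 genes were higher in tumor cells and 0 lower by limma (19.5% and 21.2% of all probe sets), and all 3 tumor signals were above all 3 normal signals in 25 genes and below them in 0 (24.5% and 24.1%). The median log2 difference (tumor minus normal) was 0.39. With arginine 10 were higher and 1 was lower (16.4% and 18.1% of all probe sets), the groups did not overlap in 11 genes with tumor higher and in 4 with tumor lower (24.5% and 24.7%), and the median was 0.08. With the experiment as a random block 19 were higher and 1 was lower without arginine (19.1% and 21.4% of all probe sets), and 8 were higher and 2 lower with it (16.6% and 18.0%). The arginine-deficient and the arginine-sufficient comparison share no arrays. With arginine the count was 5 when the tumor array of experiment 3 was left out, and 6 and 7 when the normal array of experiment 3 or of experiment 1 was.

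**Figure D5:**
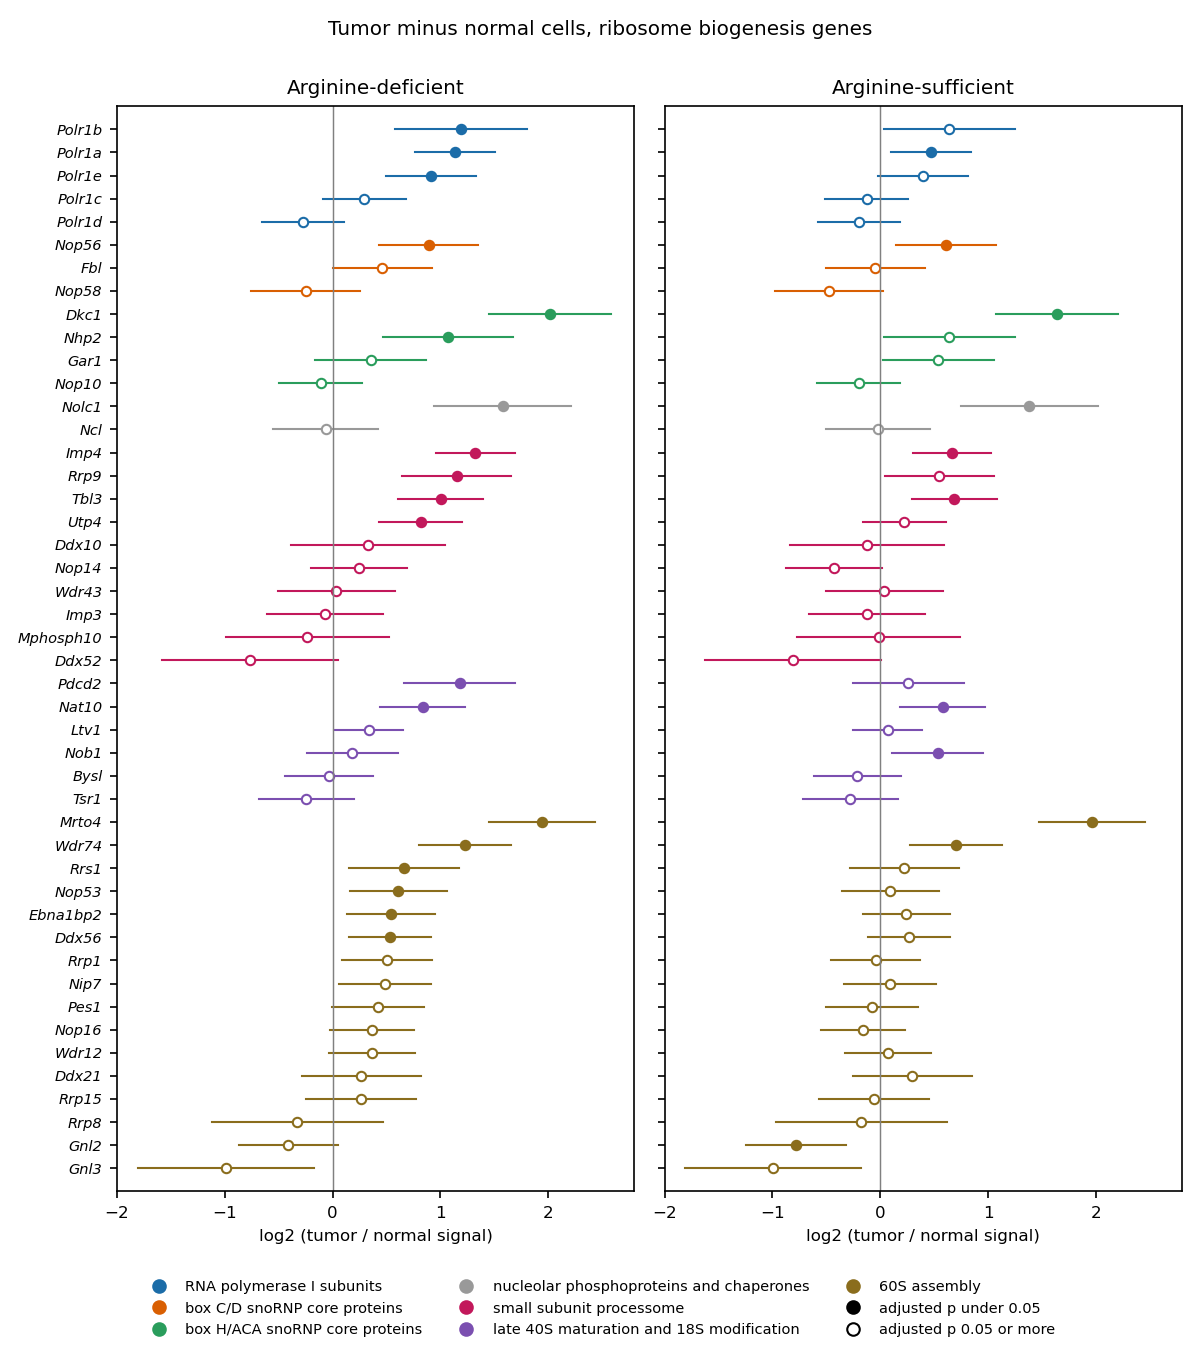
Log2 ratio of tumor to normal signal for each of the 46 genes with its 95% confidence interval, in arginine-deficient (left) and arginine-sufficient cultures (right), coloured by role, with filled circles at an adjusted p under 0.05. There are 19 filled circles on the left, all above 0, and 11 on the right, with Gnl2 below 0.

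By the probe sets used, Mrto4, Dkc1 and Nolc1 had the 3 highest differences between tumor and normal cells at both arginine levels. Mrto4, a 60S factor related to the ribosomal stalk protein P0, had 2061.5, 2492.0 and 2313.8 in arginine-deficient tumor against 552.1, 750.2 and 506.3 in arginine-deficient normal cells, and 1585.7, 1439.3 and 2089.6 in arginine-sufficient tumor against 316.2, 547.2 and 466.6 in arginine-sufficient normal cells. The log2 differences were 1.94 ± 0.23 without and 1.96 ± 0.23 with arginine (limma adjusted p = 2.42e-05 and 2.46e-05). Dkc1 had 2352.8, 2417.9 and 2532.2 in arginine-deficient tumor cells, against 650.5, 762.6 and 439.5 in arginine-deficient normal cells. Its differences were 2.02 ± 0.26 without and 1.64 ± 0.26 with arginine (adjusted p = 5.66e-05 and 0.000355). Nolc1 gave 1.58 ± 0.29 and 1.38 ± 0.29 (adjusted p = 0.000899 and 0.0027), and its 2 other probe sets were higher in tumor cells too, by 0.96 and 1.54 without and 0.70 and 1.35 with arginine. The probe sets of Polr1d did not agree. The one used here gave -0.28 ± 0.18 without and -0.20 ± 0.18 with arginine (adjusted p = 0.229 and 0.414), and the other gave 1.68 ± 0.24 and 1.89 ± 0.24 (adjusted p = 0.000118 and 5.15e-05). For Mrto4, Dkc1 and Nolc1 all tumor signals were above all normal signals at the same arginine level.

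Other genes were above normal cells by more in the arginine-deficient cultures. Polr1b had 726.9, 732.8 and 649.2 in arginine-deficient tumor against 221.2, 412.3 and 318.0 in arginine-deficient normal cells, a log2 difference of 1.19 ± 0.28 (limma adjusted p = 0.0046), while with arginine it was 0.64 ± 0.28 (adjusted p = 0.0973). Polr1a gave 1.13 ± 0.17 and 0.47 ± 0.17 (adjusted p = 0.000197 and 0.048). The call of Polr1a with arginine was lost with the experiment as a random block (adjusted p = 0.0552) and in 15 of 22 alternatives in all. Polr1e gave 0.91 ± 0.19 and 0.40 ± 0.19 (adjusted p = 0.00231 and 0.134). Pdcd2 was 1.18 ± 0.24 higher in tumor cells without arginine (adjusted p = 0.00167) and 0.26 ± 0.24 with it (adjusted p = 0.433). Of the processome and 60S genes, Imp4, Wdr74, Rrp9 and Tbl3 gave 1.33, 1.23, 1.15 and 1.0 without arginine and 0.67, 0.71, 0.55 and 0.69 with it, and Rrp9 did not pass with arginine (adjusted p = 0.0888). The change in these differences with arginine is the same quantity as the difference between the responses, in which 0 genes passed. Nhp2, Nop56, Nat10, Utp4, Rrs1, Nop53, Ebna1bp2 and Ddx56 completed the 19, with log2 differences of 0.53 to 1.07, and Nop56, Nat10 and Nob1 the genes that were higher with arginine, at 0.61, 0.58 and 0.53 (adjusted p = 0.0406, 0.027 and 0.0491). The call of Nob1 was lost with the random block (adjusted p = 0.0625) and in 15 of 22 alternatives in all, that of Nop56 in 9 and that of Nat10 in 6. Among the 19 without arginine, the calls of Rrs1, Ddx56, Ebna1bp2 and Nop53 were lost in 8, 7, 6 and 3 of 22.

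The nucleolar GTPase genes Gnl2 and Gnl3, the second known as nucleostemin, were at the low end in tumor cells. Gnl2 had 402.6, 353.4 and 282.6 in arginine-sufficient tumor against 538.3, 665.3 and 568.9 in arginine-sufficient normal cells, with no overlap (log2 difference -0.78 ± 0.21, limma adjusted p = 0.0124), and -0.41 ± 0.21 without arginine (adjusted p = 0.145). Gnl3 had 1613.1, 1054.6 and 851.1 in arginine-sufficient tumor cells, against 2956.8, 2149.1 and 1801.2 in arginine-sufficient normal cells, which gave -0.99 ± 0.38 (adjusted p = 0.057, with the experiment as a random block 0.0325). Without arginine Gnl3 gave -0.99 ± 0.38 as well (adjusted p = 0.0514, with the random block 0.029). Ddx52 was the other gene at the low end, with -0.76 without and -0.81 with arginine (adjusted p = 0.124 and 0.118), at signals near or under the expressed threshold.

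Other genes of the pathway were taken from a list of initiation factors, shared polymerase subunits, RNA polymerase III, the RNA exosome, snoRNP assembly, RNase MRP and RNase P, and further factors of both subunits, of which 95 were tested. In tumor cells 65 of the 95 were higher and 30 lower without arginine, where 44.4% of all probe sets were higher. The median log2 difference was 0.12. By limma 0 passed, against 0.965% of all probe sets called higher and 0.944% called lower. In the blocked fit 4 of the 95 rose, where 4.79% of all probe sets did: Aatf (0.68 ± 0.20), Crcp (0.61 ± 0.18), Zfp622 (0.57 ± 0.19) and Eif6 (0.53 ± 0.22). Crcp is a subunit of RNA polymerase III, and Eif6 keeps the 60S subunit from joining too early. In normal cells the median was 0.00 and 0 passed, where 0.133% and 0.0308% of all probe sets were called higher and lower. With the block Eif6 alone rose, where 1.39% of all probe sets did. Between the lines 30 of the 95 were higher and 5 lower in tumor cells without arginine, against 19.5% and 21.2% of all probe sets. With arginine 14 were higher and 4 lower, against 16.4% and 18.1%. Rpp25, a protein of RNase MRP and RNase P, was the lowest in tumor cells, by -4.92 ± 0.38 without and -4.05 ± 0.38 with arginine (adjusted p = 5.78e-07 and 3.73e-06). In the same list Pop1, another of its proteins, had the highest value of the 95 at both arginine levels, 2.59 ± 0.69 (adjusted p = 0.009) without arginine and 1.70 ± 0.69 with it (adjusted p = 0.0734). It was named after its values were seen. Ddx54, Bud23, Rcl1 and Nol6 were higher by 1.67, 1.99, 1.24 and 1.29 without and 1.13, 1.61, 0.94 and 1.0 with arginine.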

How the data were processed

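RNA of 12 rat cultures was measured on 1 Affymetrix RAE230A array each. The deposited values are intensity signals, 1 for each probe set. The authors computed them array by array in Microarray Suite 5.0, scaled to a common trimmed mean (500.1 to 500.2 here), not log-transformed. Median signals were 173 to 226. The array records were read, in addition, for chip lot, scan day and a note on handling. These deposited records hold no measurement. Arrays give no counts, so depth has no meaning here.

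A signal under 1 was raised to 1 before the log2 transformation. Tested were probe sets among the highest 54% of its array (threshold 146 to 191) on at least 3 of 12 arrays, and 57 controls were left out. Of 15923 probe sets, 12783 carry 1 symbol, 311 several and 2829 none, and 12748 of the first were found by gene identifier in a RefSeq table, with 0 symbols changed. The members and lists were chosen with earlier results of these data known.

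All arrays entered 1 limma model (version 3.58.1, R 4.3.3) that had a mean for each group, an intensity trend and Benjamini-Hochberg adjustment over the 9745 probe sets of a contrast, with a threshold of 0.05. A second fit took the experiment within a line as a block (for tumor minus normal as a random block, correlation 0.431). The pairs come from the study's first table, its 3 pair-wise experiments per line and the array records. Deviations from the group means correlated within experiments at 0.429, 0.42 and 0.383 in normal and 0.56, 0.0368 and 0.419 in tumor cells. Across experiments the values were -0.284 to -0.157 in normal and -0.537 to 0.275 in tumor cells. The arginine-deficient tumor array of experiment 2 correlated more with the arginine-sufficient array of experiment 3 (0.275) than with its own partner (0.0368). The blocked fit and the counts by experiment in tumor cells rest on that pair too. Nothing tells whether cultures of an experiment had separate passages, so p-values measure the spread between these cultures. By rule, the named genes are the members past the threshold, the 3 highest and lowest of each contrast, the RNA polymerase I and snoRNP proteins, Ncl and Nolc1. Members past the threshold only with the block, and others such as Pes1, Ltv1 and Mphosph10 where outside that rule, were named after their values were seen. Only the fit without the block was tested on simulated data, with noise independent between arrays and planted differences of 1 log2 unit or more. The blocked fit and smaller differences were not simulated. Promoters are those of a RefSeq table in build GRCr8; 41 measured genes matched, and the first window was taken for the 1 gene with several. Python 3.11.15, numpy 2.4.6, pandas 2.3.3, scipy 1.17.1 and matplotlib 3.10.9 were used for the rest.

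Alternatives were no filter, low signals raised to the threshold, quantile normalization, an offset of 16, a fit without the intensity trend, centring on medians, the experiment, scan day or chip lot as a block, 1 cell type alone, averaging the probe sets of each gene, each array left out, and, chosen after seeing the data, both arrays of experiment 2 of a line left out. The authors' change calls were not analysed here.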

Additional observations from a re-analysis of the deposited data

Results flagged for a closer look

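Polr1a and Rrs1 stood out because every experiment moved one way in tumor cells and the other way in normal cells, a pattern found in 2 of the 46 genes and 2.13% of all probe sets. Polr1a, the largest subunit of RNA polymerase I, had log2 ratios of arginine-deficient to arginine-sufficient signal of 0.56, 0.52 and 0.11 in tumor cells and -0.28, -0.17 and -0.34 in normal cells. The difference between its responses was 0.66 ± 0.24 (95% confidence interval 0.13 to 1.19, limma adjusted p = 0.824 and unadjusted p = 0.0178). Rrs1, a factor that brings the small 5S particle into the 60S subunit, had ratios of 0.15, 0.40 and 0.32 in tumor cells and -0.35, -0.06 and -0.02 in normal cells. Scan day as a block takes the arginine-sufficient normal array of experiment 2, alone on its day, out of the comparison. With this block the log2 difference of Rrs1 in normal cells was 0.06, against -0.14 without it, so its sign changed. That of Polr1a was -0.20, against -0.26. The difference between the responses of Rrs1 was 0.44 ± 0.34 (-0.29 to 1.16, adjusted p = 0.968). Neither difference passed the test. The reverse pattern was found in 0 of the 46 genes and 2.17% of all probe sets.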

How the results depend on the processing

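No called gene changed direction under any alternative. With the experiment as a block the genes called without arginine numbered 15 in tumor cells and 3 in normal cells, against 2 and 0 in the fit without it, and for tumor minus normal 10 higher and 1 lower became 8 and 2 with arginine, and 19 and 0 became 19 and 1 without it. In tumor cells 1 gene, Pdcd2, was called with no filter, with 1 cell type alone and with the chip lot as a block, and 0 without both arrays of experiment 2. The median was 0.47 after median centring. In normal cells 1 gene was called with scan day as a block (median 0.14), and 1 without both arrays of experiment 2. With arginine 7 genes differed between the lines without both tumor arrays of experiment 2. Leaving out 1 array gave 1 to 3 genes and medians of 0.31 to 0.43 in tumor cells, 0 to 1 genes and medians of -0.035 to 0.18 in normal cells, medians of 0.18 to 0.43 for the difference between the responses, and 5 to 13 genes for tumor minus normal with arginine. The causes were not tested. Counts of called genes in tumor cells without arginine rest on few arrays, and signals such as those of Ddx52 and Rrp8 lie near the expressed threshold.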
